A study of Mus musculus with 22 samples.

Results

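Whole-genome bisulphite sequencing was examined in 4 mouse embryos collected at E10.5, 2 wild type (Rlf+/+) and 2 homozygous for the MommeD28 allele of Rlf (Rlf MommeD28/MommeD28). These are 4 of the 22 samples of the series. Methylation was summed over 1 kb tiles of chromosomes 1 to 19 that held at least 8 CpGs covered by 6 or more reads in all 4 embryos, which gave 601768 tiles. Calls required that the genotype means lie more than 15 percentage points apart, with an adjusted p under 0.05. By this rule 2210 tiles were higher in the mutants and 19 were lower.

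MommeD28 is a null allele made with the mutagen ENU in inbred FVB/NJ mice of Line3. All 4 embryos, wild types included, were homozygous for the multicopy reporter array of that line, in which GFP is driven by the HS-40 enhancer with a human alpha-globin promoter. The embryos came from timed matings of heterozygotes, were used whole and are all labelled male. DNA of all cell types was therefore mixed, and a change within a cell type and a change in the share of that cell type cannot be told apart. CpG counts show neither the MommeD28 substitution nor the level of Rlf, so they give no check of the genotype labels. No label ties embryos of both genotypes to one litter, and p-values measure only the spread between these 4 embryos.

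Cytosines followed by guanine (CpGs) carry most of the methylation of mammalian DNA. CpG-rich islands at gene starts are mostly free of methylation, most of the remaining genome is highly methylated, and many enhancers and the borders of islands (shores) lie in between and differ among cell types. Rlf encodes a zinc finger protein that emerged from a screen for modifiers of transgene silencing. The comparison asks where methylation of the embryo differs when Rlf is absent.

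The sequences below carry the strongest differences: for the 5 largest rises and the largest fall, the 200 bp of the tile with the largest mean difference. They were read from the NCBIM37 (mm9) reference, plus strand, with every CpG in capitals, since the counts fall on CpGs. The embryos are of the FVB strain, and their own bases can differ from the reference.
chr10:120131681-120131880, at 4921513I03Rik: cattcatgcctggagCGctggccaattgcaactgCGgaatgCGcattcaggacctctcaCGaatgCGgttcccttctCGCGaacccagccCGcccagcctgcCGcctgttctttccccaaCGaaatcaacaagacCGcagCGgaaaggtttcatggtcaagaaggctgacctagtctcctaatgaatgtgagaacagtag
chr19:30613801-30614000, at Dkk1: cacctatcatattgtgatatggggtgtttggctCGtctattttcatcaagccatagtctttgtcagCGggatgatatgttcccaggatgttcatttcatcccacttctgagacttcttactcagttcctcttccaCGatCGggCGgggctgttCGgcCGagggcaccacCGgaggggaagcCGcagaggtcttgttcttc
chr15:25294001-25294200, at Basp1: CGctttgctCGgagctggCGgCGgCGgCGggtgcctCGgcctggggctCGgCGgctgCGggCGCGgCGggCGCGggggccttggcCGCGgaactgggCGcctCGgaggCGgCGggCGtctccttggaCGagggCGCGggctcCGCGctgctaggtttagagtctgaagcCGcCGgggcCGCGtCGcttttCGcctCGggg
chr13:58770135-58770334, at Slc28a3: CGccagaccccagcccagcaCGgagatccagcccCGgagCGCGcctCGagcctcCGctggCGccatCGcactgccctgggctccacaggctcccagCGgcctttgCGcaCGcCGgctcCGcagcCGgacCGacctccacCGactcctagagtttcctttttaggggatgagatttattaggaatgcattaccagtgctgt
chr5:135734084-135734283, at Fzd9: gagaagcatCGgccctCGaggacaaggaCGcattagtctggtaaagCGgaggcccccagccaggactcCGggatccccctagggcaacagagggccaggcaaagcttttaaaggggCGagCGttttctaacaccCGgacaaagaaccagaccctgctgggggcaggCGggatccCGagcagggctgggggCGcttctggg
chr16:20497234-20497433, at Eif2b5: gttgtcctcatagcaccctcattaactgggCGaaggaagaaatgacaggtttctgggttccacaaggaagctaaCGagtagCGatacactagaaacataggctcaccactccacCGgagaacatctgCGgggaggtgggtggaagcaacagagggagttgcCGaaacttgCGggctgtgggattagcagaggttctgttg

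These windows were chosen by their difference, so their values are a description. The Basp1 window is packed with CpGs: all 33 covered CpGs were higher in both mutants than in both wild types, and the window had 17.8% and 28.6% in the wild types and 77.8% and 73.7% in the mutants. The chromosome 10 window at 4921513I03Rik had 15.8% and 33.2% against 76.5% and 74.1% in the same order. All 12 covered CpGs of that window were higher in both mutants, as were all 17 at Slc28a3, all 11 at Fzd9 and all 7 at Dkk1. In the Eif2b5 window all 5 covered CpGs were lower in both mutants, with 56.1% and 64.3% in the wild types and 11.9% and 25.5% in the mutants.

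The embryos had 320694674 to 363920865 reads over CpGs, or 15.4 to 17.5 reads per autosomal CpG, and a tile held a median of 249 to 278 reads. Unconverted reads at CpGs of the unmethylated lambda spike made up 0.0544% to 0.0775% (Wilson 95% bounds from 0.0537% to 0.0784%, for counting error only). The depth of chromosome X was 0.363 to 0.366 of the autosomal depth in the 4 embryos. Embryos of one genotype differed by a root mean square of 4.17 and 4.18 points per tile, and embryos of different genotype by 4.66 to 5.23 points. The squared gap within a genotype was 1.65 and 1.68 times its counting error, so neither pair agreed within counting error. Between genotypes it was 2.02 to 2.66 times.

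Averaged over all tiles, methylation was slightly higher in the mutants. The wild-type embryos had 77.1% and 77.4% and the mutants 78.6% and 79%, a difference of 1.57 points, with SDs of 0.228 and 0.24 points (n = 2 each, exact two-sided permutation p = 0.33). The genotypes did not overlap, and 0.33 is the smallest p that 2 against 2 embryos can give. The mutant mean was higher in 67.5% of tiles. Both mutants lay above both wild types in 31.3% of tiles and below both in 9.32%. By chromosome the difference ranged from 1.43 points on chromosome 1 to 1.72 points on chromosome 4, which carries Rlf, and chromosome 5 had the highest share of higher tiles, 0.536%.

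Single tiles were tested with the quasi-likelihood method of edgeR, with p-values adjusted over all tiles (Benjamini-Hochberg). It called 0.367% of the tiles higher and 0.00316% lower, or 0.37% in either direction. In all 2210 higher and all 19 lower tiles the genotypes did not overlap. A call at this difference and adjusted p largely requires that, so for called tiles it is a description here and below. Over all tiles both mutants lay above both wild types in 31.3% and below both in 9.32%. The median rise of the higher tiles was 18.6 points and the largest 49.5 points, 233 rose by more than 25 points and 84 by more than 30 points. The threshold lay in a continuous range, with 334 called tiles less than 1 point above it and 338 tiles less than 1 point below it that passed the adjusted p.

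The number of calls rested on single embryos. It was 886 without wild type 1 and 3516 without wild type 2, against 2210 with all 4 embryos. Wild type 1 was below wild type 2 in 76.9% of the higher tiles and in 52.5% of all tiles. In tiles at 20% to 60% wild-type methylation it was so in 58.4%. Counts of gene lists without 1 embryo, given below, are to be read beside the count over all tiles without the same embryo. limma on log2 ratios called 0 tiles at the same threshold, with 52493 tiles at an unadjusted p under 0.05, against 65086 by edgeR.

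The tiles that rose had intermediate methylation in the wild type. Their median wild-type level was 46.9% (quartiles 32.5% and 57.7%), and 1547 of them, 70%, lay at 20% to 60%, a range that held 6.97% of all tiles. By contrast 67.5% of all tiles had a wild-type level of 80% or more, and 0 of these were called higher by edgeR, although 332 of them were higher at an adjusted p under 0.05 by less than 15 points and 22975 at an unadjusted p under 0.05. The scale ends at 100%, which leaves the most methylated tiles no room for a rise of more than 15 points.

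The mean difference over all tiles, called or not, followed the same course. In tiles at 40% to 60% the wild types averaged 50.9% and 52.3% and the mutants 55.9% and 56.7%, a difference of 4.7 points. It was 3.96 points at 20% to 40%, 3.36 points at 60% to 80% and 2.71 points at 10% to 20%. At both ends it was small, 0.522 points below 10% and 1.35 points at 80% to 90%. Above 90% the mutants differed by -0.225 points. Within every class the genotypes did not overlap (exact permutation p = 0.33 for each, the smallest possible).

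The wild-type level enters both the class and the difference, so the class was also taken from one wild type and the difference from the other. Tiles at 40% to 60% in wild type 1 differed from wild type 2 by 3.53 points, and the reverse gave 4.83 points. In both directions this class had the largest difference. The sign above 90% turned, to 0.559 and 0.453 points higher in the mutants, so the small fall in the most methylated tiles did not hold.

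**Figure D1:**
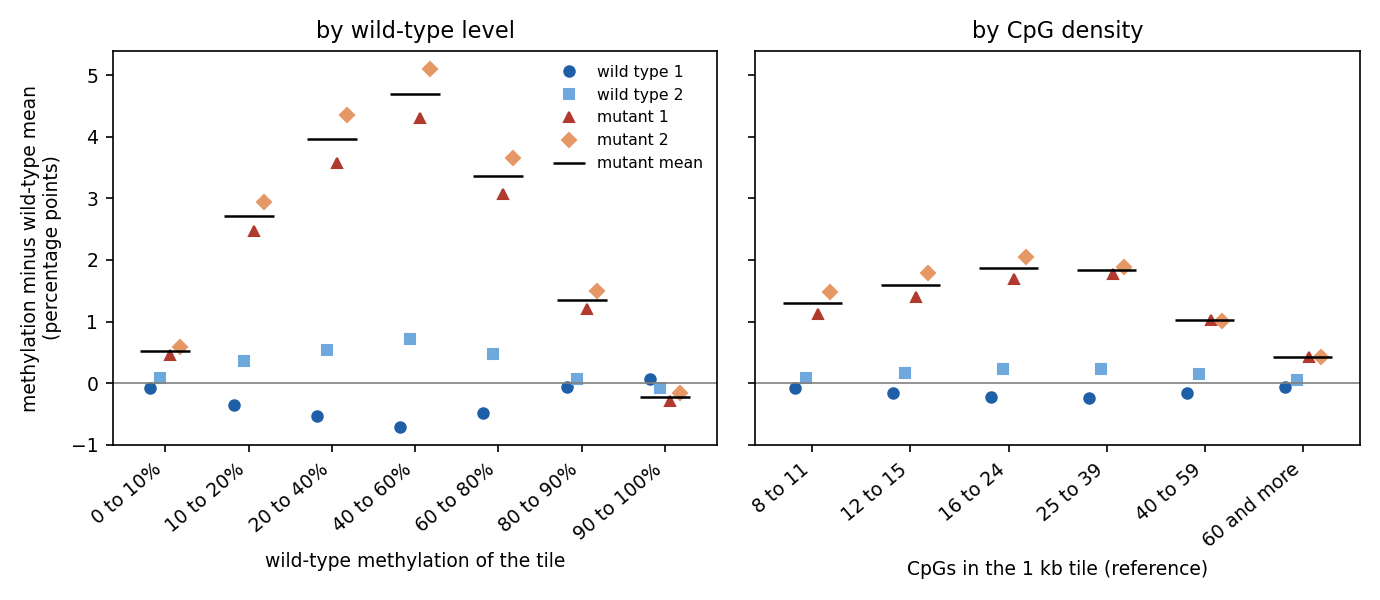
Methylation of each embryo minus the wild-type mean, in percentage points (y axis, linear), for tiles grouped by wild-type level (left) and by the number of reference CpGs (right); points are the mean over tiles of 1 embryo and the black bar is the mean of both mutants. The mutants lie above both wild types in every class except a wild-type level of 90% to 100%, and the gap is largest, 4.7 points, at 40% to 60%.

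CpG density entered the pattern as well. Over all tiles the difference was 1.3 points in tiles with up to 11 reference CpGs, 1.88 points with 16 to 24, 1.83 points with 25 to 39 and 0.432 points with 60 and more. The densest tiles were nearly free of methylation, with wild-type means of 2.64% and 2.75%, so level and density were tied.

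Within tiles of 20% to 60% wild-type methylation the difference was larger in denser tiles, up to 59 CpGs. It was 3.8 points with up to 11 CpGs, 4.65 points with 16 to 24, 5.43 points with 25 to 39 and 7.5 points with 40 to 59. The 428 tiles of the last class had 36.6% and 38.8% in the wild types and 46% and 44.4% in the mutants. The 122 tiles with 60 and more differed by 7.07 points.

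The share of tiles called higher peaked where both properties met. Of the 186 tiles with 40 to 59 CpGs and a wild-type level of 40% to 60%, 28.5% were called higher, against 0.936% of tiles with up to 11 CpGs at that level. The denser tiles also held more reads, a median of 1192 against 196.5 per embryo, and the part of depth in this share was not tested. Within the 20% to 60% range the higher tiles had a median of 20 CpGs, 50.4% G and C and an observed to expected CpG ratio of 0.33. The tiles of that range that were not called had 15 CpGs, 48.6% and 0.265.

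**Figure D2:**
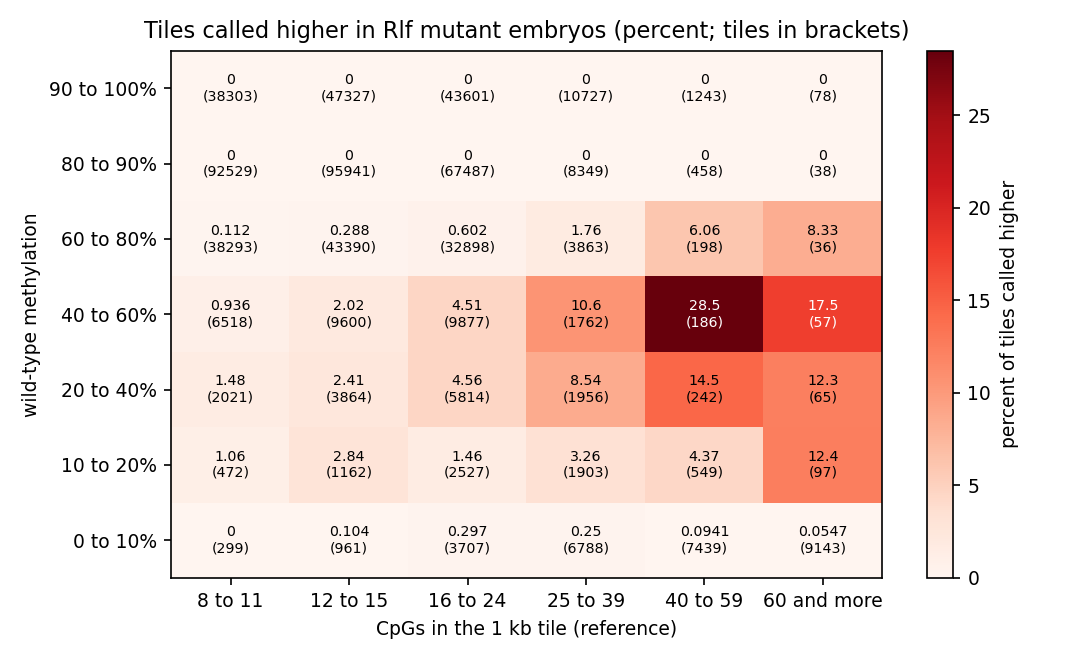
Percent of tiles called higher in the mutants (colour and upper number of each field) by wild-type methylation (y axis) and reference CpGs per tile (x axis), with the number of tiles in brackets. The share is highest, 28.5%, at 40% to 60% methylation and 40 to 59 CpGs, and 0 in all fields at 80% or more.

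Relative to CpG islands, found here from the sequence alone, shores held the highest share of higher tiles. Of the tiles in shores, within 2 kb of an island, 1.13% were called higher, of island tiles 0.653%, of shelf tiles (2 to 4 kb away) 0.538% and of tiles beyond 0.289%. These shares moved with single embryos: without wild type 1 they were 0.51% in shores, 0.419% in islands and 0.107% beyond, and without wild type 2 1.54%, 0.871% and 0.491%. In each case shores had the highest of the 3. Shores held 22.1% of the higher tiles and 7.2% of all tiles, while 68% of the higher tiles lay beyond shelves. The mean difference was 1.85 points in shores, 1.78 in shelves, 1.56 beyond and 0.582 in islands.

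Island tiles with intermediate wild-type methylation were few but differed most. These 231 tiles had 38.4% and 40.4% in the wild types and 47.9% and 45.9% in the mutants, a difference of 7.5 points, and 20.3% of them were called higher. At the same level shores differed by 4.48 points with 5.24% called higher, and tiles beyond by 4.4 points with 3.17%. The island tiles also held more reads, a median of 1641.5 per embryo against 310 in shores and 260.25 beyond. The part of depth in these shares was not tested.

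With respect to genes, 52.9% of the higher tiles and 55.7% of all tiles lay in protein-coding genes or at their start sites. First exons outside the start-site window (1 kb to either side) had the highest share of higher tiles, 2.6% of 884 tiles, and a mean difference of 2.31 points. At start sites 0.584% were called higher with a mean difference of 1.24 points, and in introns 0.29% with 1.57 points. Without wild type 1 the shares were 1.7% in first exons, 0.268% at start sites and 0.107% in introns, and without wild type 2 3.85%, 0.86% and 0.491%. Tiles farther than 10 kb from a gene had 0.399% and 1.71 points, with a share of 0.153% without wild type 1 and 0.646% without wild type 2. At 20% to 60% wild-type methylation, first exons differed by 6.31 points, tiles far from genes by 4.84, introns by 4.68, other exons by 4.65 and start sites by 3.55. Over all levels first exons held a median of 531 reads per embryo, against 257.25 in introns. The part of depth in the shares called was not tested.

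The higher tiles mostly stood alone among the tested tiles. They formed 2001 stretches, of which 1815 (90.7%) were a single tile and 19 were 3 or more adjacent tiles. A stretch also ended where the next tile was not tested. Only 1282 tested tiles lay directly before the stretches and 1247 directly after. Inside the stretches the wild types had 42.4% and 46.9%, in the tile before them 60.7% and 62.5%, and at 10 kb before them 71% and 71.8%. The mutants had 64.5% and 64.5% inside, 66.5% and 67% in the tile before and 74% and 74.2% at 10 kb. The lower wild-type level inside is partly fixed by the call, which needs room for a rise, and is given as a description. The difference inside, 19.8 points, was used for the calls; in the adjacent tiles it was 5.13 and 5.81 points, and at 10 kb 2.74 and 2.53 points.

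**Figure D3:**
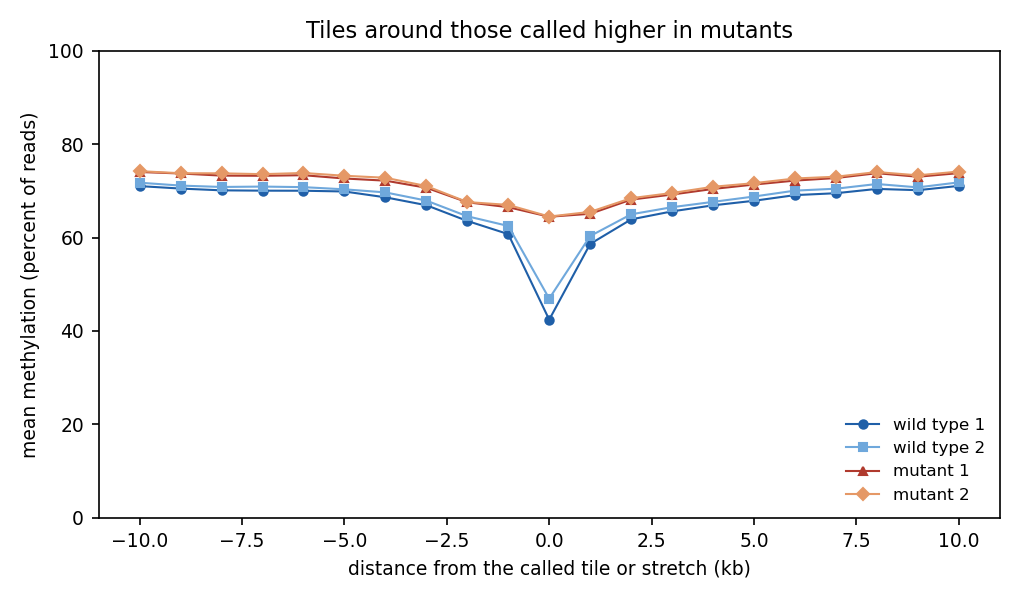
Mean methylation in percent of reads (y axis) of the 4 embryos in the 2210 called tiles (0) and in the tiles up to 10 kb to either side of each stretch (x axis). The wild types dip to 42.4% and 46.9% at 0, where both mutants have 64.5%, and both mutants lie above both wild types at every distance. The flanks hold fewer tested tiles, 1282 and 1247 at 1 kb before and after.

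The longest stretch lay in Snx18, which encodes a sorting nexin of membrane traffic. Its 5 adjacent tiles, chr13:114403001-114408000, averaged 32.7% and 38.4% in the wild types and 60.3% and 64.4% in the mutants, a difference of 26.8 points. A stretch of 4 tiles in B3gnt3, an enzyme of glycan synthesis, at chr8:74215001-74219000 averaged 32% and 37% against 57.5% and 56.6%. Another of 4 tiles in 4933407C03Rik, at chr8:119782001-119786000, averaged 36.5% and 37.7% against 59.8% and 61.4%. In each of these stretches both mutants were above both wild types, which the calls of their tiles largely fixed.

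The tile with the largest rise, chr10:120131001-120132000, lay 71.3 kb before the start of 4921513I03Rik (ENSMUSG00000044544), the protein-coding gene with the nearest start site. It had 17.6% and 32.1% in the wild types and 75.7% and 73.1% in the mutants, a rise of 49.5 points (edgeR, adjusted p = 7.79e-11). Of its 17 covered CpGs 16 were higher in both mutants. The tiles were chosen by their difference, and the same share over other single CpGs was not computed. Counts of CpGs here and in the tiles below are therefore descriptions. The second, chr19:30613001-30614000, lay 10.7 kb from the start site of Dkk1, a secreted inhibitor of Wnt signalling. It had 30.3% and 29.6% in the wild types and 75.4% and 75.9% in the mutants (edgeR, adjusted p = 3.00e-09), with both wild types close together and far below both mutants. It overlaps the pseudogene Gm5972, whose reads can be shared with its copies, so this value is less certain.

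The third was in an exon of Basp1 (ENSMUSG00000045763), which encodes a membrane protein of growing axons, and in a CpG island. This tile, chr15:25294001-25295000, had 12.3% and 22.7% in the wild types and 67.7% and 54.3% in the mutants, a rise of 43.5 points (edgeR, adjusted p = 4.60e-10). All 95 covered CpGs were higher in both mutants, which is likewise a description. At Slc28a3, a nucleoside transporter gene with the nearest start site at 58.3 kb, chr13:58770001-58771000 had 18.3% and 30.6% against 76.5% and 58.1% (edgeR, adjusted p = 5.54e-09). In both tiles the mutants were further apart than the wild types and still did not overlap with them.

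At Fzd9, a receptor for Wnt proteins, chr5:135734001-135735000 lay 7.4 kb before the start site and had 21.5% and 30.7% in the wild types and 65.1% and 71.4% in the mutants, with all 30 covered CpGs higher in both mutants (edgeR, adjusted p = 1.75e-10). At Otop3, a proton channel, chr11:115195001-115196000 lay 0.545 kb before the start site and had 15.4% and 23.5% against 58.1% and 59.2% (edgeR, adjusted p = 5.24e-10). At 39.7 kb from the start of Asb2, a substrate receptor of a ubiquitin ligase, chr12:104554001-104555000 had 35.5% and 48.2% against 81.2% and 77.7%. The other 5 of the 12 largest rises, at Gm10116 or with the nearest start site at Gm5800, 1700020O03Rik, 4832428D23Rik and, 916 kb away, B930007M17Rik, were 37.2 to 41.2 points. Wild type 1 was the lowest of the 4 embryos in all 12 tiles except those at Dkk1 and B930007M17Rik, and all 12 were called when each embryo was left out in turn.

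**Figure D4:**
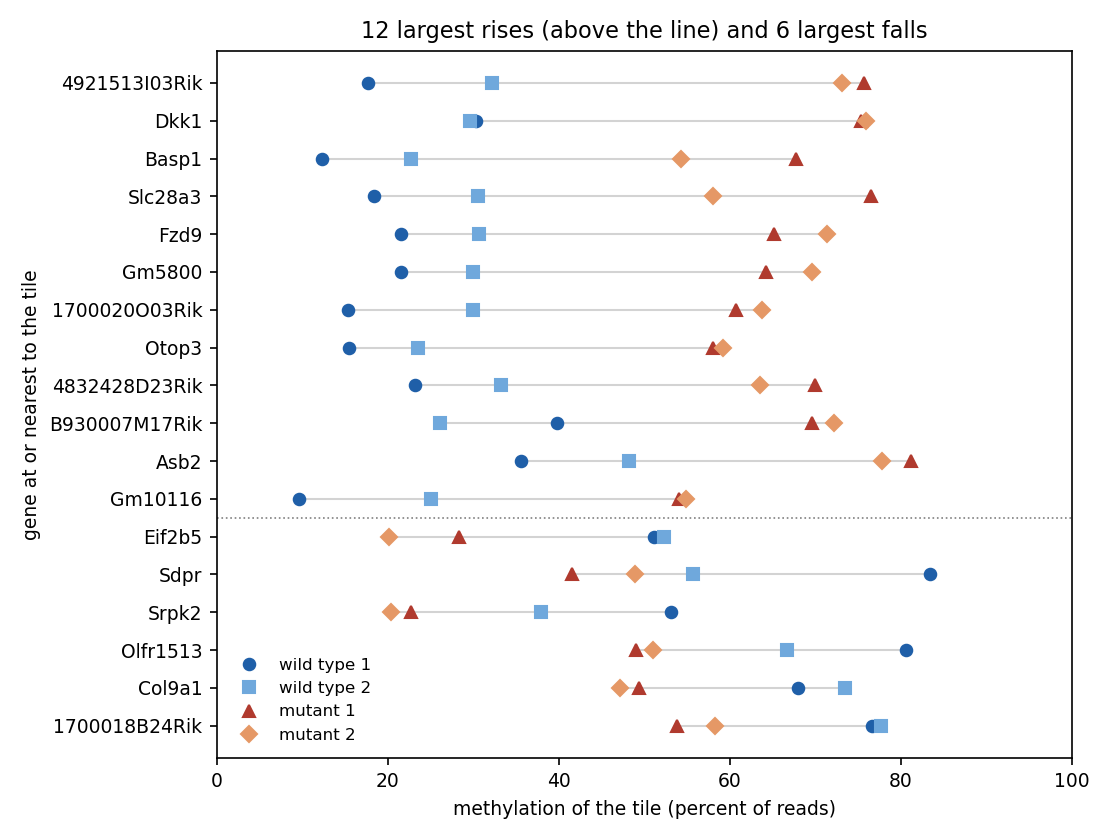
Methylation in percent of reads (x axis) of the 4 embryos in the tiles with the 12 largest rises and the 6 largest falls (y axis, named by the gene that holds them or has the nearest start site); each symbol is 1 embryo and the grey line spans the 4. In every tile both mutants lie on one side of both wild types, which the choice of these tiles required. Differences reach 49.5 points for rises and -27.5 points for falls.

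Falls were few. The largest, chr16:20497001-20498000, lay 1.39 kb before the start of Eif2b5, a subunit of a translation initiation factor complex. It had 51.1% and 52.3% in the wild types and 28.3% and 20.1% in the mutants, a difference of -27.5 points (edgeR, adjusted p = 1.56e-06), with 25 of its 32 covered CpGs lower in both mutants. The other 5 of the 6 largest, in Col9a1 or with the nearest start site at Sdpr, Srpk2, Olfr1513 and, 453 kb away, 1700018B24Rik, differed by -24.4 to -21.1 points.

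Several falls lost their call when 1 embryo was left out. At the tile 59.5 kb from the start of Sdpr, a gene of caveolae, the wild types themselves were far apart, at 83.4% and 55.7% against 41.5% and 48.9% (edgeR, adjusted p = 0.0308), and the difference was -10.5 points without wild type 1. The adjusted p by edgeR was 0.73 without wild type 1 and 0.0667 without mutant 1. In an intron of Col9a1, a cartilage collagen, the tile had 67.9% and 73.5% against 49.4% and 47.2% (edgeR, adjusted p = 0.0165), and the difference stayed between -25.2 and -19.6 points while the adjusted p was 0.0698 without wild type 1, 0.0967 without wild type 2 and 0.0923 without mutant 2. Without wild type 1 the tile near Srpk2, a kinase of splicing factors, differed by -16.4 points (edgeR, adjusted p = 0.162). The tile near Olfr1513 differed by -16.7 points without wild type 1, -22.6 without mutant 1 and -24.7 without mutant 2, with adjusted p of 0.443 without wild type 1, 0.109 without mutant 1 and 0.067 without mutant 2. The total of 19 lower tiles became 38 without wild type 2, 40 without mutant 1 and 49 without mutant 2.

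By gene, 989 of 19034 protein-coding genes with a tested tile, 5.2%, held a higher tile in the body or up to 5 kb before the start. Of these, 65 held 3 or more. Counts by gene were not repeated with 1 embryo left out, which moved the number of called tiles. Ror2, a receptor for Wnt5a that acts in limb and axis development, had 9 of 122 tiles called higher, 7.38% of them. Over these tiles the wild types averaged 37.5% and 41.7% and both mutants 59.1%. The median difference over all tiles of Ror2 was 3.95 points, against 1.14 points over all tiles of the genome. Genes here and in the next paragraph were named for their number of higher tiles, which enter these values. The values are therefore descriptions. Srrm4, a splicing regulator of neurons, had 8 of 108 tiles, which averaged 34.6% and 41.3% against 58.1% and 58%.

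Snx18 had 6 of its 28 tiles called higher. Zfhx3, a homeodomain and zinc finger transcription factor, had 7 of 206, Prdm16, a regulator of brown fat and stem cells, 7 of 257, Wwox, an oxidoreductase, 8 of 646, and Fgfr2, a fibroblast growth factor receptor, 7 of 1308. The annotated Fgfr2 model spans other loci too, and 0.535% of its tiles were called, near the share of all tiles. Gm20388, an annotated locus of chromosome 8 that spans other genes, had 15 of 3366, or 0.446%, which is near the 0.367% of all tiles. None of these genes held a lower tile.

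Of 129 patterning transcription factors with tiles, 15 held a higher tile, 19 of 3021 tiles or 0.629%, against 0.367% of all tiles. This was 11.6% of these genes, against 5.2% of all protein-coding genes. The median difference of all their tiles was 0.955 points, against 1.14 points over all tiles. Without wild type 1 the share of higher tiles in the list fell below that of all tiles, so its excess depended on that embryo. At Pax7, a factor of neural tube and muscle precursors, the intronic tile chr4:139310001-139311000 had 51.7% and 46.8% in the wild types and 74.7% and 75.6% in the mutants (edgeR, adjusted p = 6.52e-04). At Dlx1, a factor of the forebrain and branchial arches, a tile 3.67 kb before the start had 32.6% and 40.7% against 55.2% and 63.4% (edgeR, adjusted p = 0.0133). At Meis1, a cofactor of Hox proteins, a tile had 39.5% and 47.7% against 70.5% and 61.4% (edgeR, adjusted p = 0.0047), and the adjusted p was 0.181 without wild type 1 and 0.0896 without mutant 1. The genotypes did not overlap in any of the 3 tiles, which their calls largely fixed. At Dlx1 the difference was 18.7 points without wild type 1 and 18.6 points without mutant 2, and the call was lost each time. The other members with a higher tile were Alx4, Gbx2, Gli2, Irx4, Isl1, Pax5, Pitx1, Prrx2, Sim1, Six3, Tshz2 and T, the gene of brachyury, with rises of 15.1 to 21.9 points.

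The 4 Hox clusters, which specify position along the body axis, had a median wild-type level of 1.28% over 270 tiles, and 2 tiles were called higher, 0.741% against 0.367% of all tiles, both in the Hoxa cluster. At chr6:52165001-52166000, an exonic tile shared by Hoxa3, Hoxa6 and Hoxa7, methylation was 2.9% and 2.1% in the wild types and 20.2% and 19.2% in the mutants (edgeR, adjusted p = 3.38e-11). In an intron of Hoxa10 it was 14% and 12.6% against 37.8% and 31.8% (edgeR, adjusted p = 0.00203). Whatever the size of the difference, 28 of the 270 Hox tiles were higher at an adjusted p under 0.05 by edgeR, where 0.718% of all tiles were, and 0 were lower (5 at an unadjusted p under 0.05). This count required no minimum difference, and the median difference of the Hox tiles was 0.349 points, against 1.14 points over all tiles. By the same rule 35 of 1158 tiles of imprinted genes, 53 of 3021 of patterning factors and 1 of 615 of olfactory receptors were higher. The Hoxa3, Hoxa6 and Hoxa7 tile is 1 of only 41 higher tiles among the 28337 tiles below 10% in the wild type. Tiles below 10% held a median of 1090.5 reads per embryo, against 261 over all tiles. The shares without a minimum difference were not matched by wild-type level. The part of depth in them was not tested.

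Of 17 SOX factor genes, Sox13, Sox5 and Sox6 held higher tiles, 4 of 635 tiles or 0.63%, against 0.367% of all tiles, and Sox5 also held 1 lower tile. As over all tiles, the count of higher tiles fell without wild type 1. At 20% to 60% wild-type methylation 2 of 63 SOX tiles were called higher, or 3.17%, below the 3.69% of all tiles of that level. An intron of Sox13 had 14.1% and 22.6% against 40.9% and 52% (edgeR, adjusted p = 9.43e-07). At Sox5, a factor of cartilage and neurons, the higher tile had 41.5% and 35% against 57.4% and 58.9% (edgeR, adjusted p = 0.0319), and the adjusted p was 0.0544 without wild type 1, 0.258 without wild type 2, 0.0882 without mutant 1 and 0.124 without mutant 2. At Sox6 it was 0.277 without wild type 2 and 0.148 without mutant 2.

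Of 42 Wnt pathway genes 6 held higher tiles, 9 of 1142 tiles or 0.788%, against 0.367% of all tiles. The count of higher tiles rose without wild type 2, as it did over all tiles, and also without mutant 1. The median difference of the list was 1.81 points, against 1.14 points over all tiles. Among ligands, an intron of Wnt3, which is needed for the body axis, had 30.2% and 35.7% against 51.7% and 59.5% (edgeR, adjusted p = 1.42e-04). Among receptors, the first exon of Fzd1 had 13.9% and 22% against 42.5% and 44.1% (edgeR, adjusted p = 3.50e-06). Among effectors, an intron of Lef1, a DNA-binding factor, had 43.8% and 55% against 70.8% and 77.4% (edgeR, adjusted p = 0.0138), with an adjusted p of 0.311 without wild type 1 and 0.16 without mutant 2. The remaining members with a higher tile were Lrp5, Tcf7l2 and Wnt6.

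Of 44 genes of FGF, BMP, hedgehog and Notch signalling, 5 held higher tiles: Fgfr2, the ligands Bmp2, Bmp6 and Bmp7, and the receptor Notch1. They were 11 of 2302 tiles or 0.478%, against 0.367% of all tiles, and 7 of them lay in the annotated Fgfr2 model, which spans other loci too. Without wild type 1 the share of the list fell below that of all tiles, so its small excess depended on that embryo. An intron of Bmp6 had 59.2% and 65.3% against 80.2% and 79.6% (edgeR, adjusted p = 0.00278), and the adjusted p was 0.128 without wild type 1. An intron of Notch1 had 25.3% and 22.6% against 42.8% and 44.9% (edgeR, adjusted p = 0.0263), and the adjusted p was 0.148 without wild type 1, 0.118 without wild type 2, 0.0612 without mutant 1 and 0.114 without mutant 2. The Fgfr2 tile with the largest rise had 37.3% and 53.6% against 57.1% and 78.8%, with wide gaps within both genotypes, and an adjusted p of 0.49 without wild type 1 and 0.553 without mutant 2. Among 8 SMAD genes, mediators and inhibitors of BMP and TGF-beta signals, the inhibitor Smad7 held 1 higher tile of the 305 of the list (0.328%), with 19.7% and 33.3% against 47.8% and 46.6% (edgeR, adjusted p = 0.0352) and an adjusted p of 0.621 without wild type 1, 0.0832 without mutant 1 and 0.0977 without mutant 2. The count of higher SMAD tiles was 0 without wild type 1, 3 without wild type 2, 2 without mutant 1 and 2 without mutant 2.

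Of 39 proneural and neuronal genes 4 held higher tiles, 6 of 1105 tiles or 0.543%, against 0.367% of all tiles. This count fell without wild type 1, as it did over all tiles. The largest difference was in an intron of Bai2, an adhesion receptor of the brain, where chr4:129684001-129685000 had 39.9% and 51% in the wild types and 79.9% and 76.5% in the mutants, a rise of 32.7 points (edgeR, adjusted p = 1.91e-08). Bai2 held 2 higher tiles of 37, and over all of them the mean was 63.4% and 64.6% against 68.5% and 68.4%. The paper shows a region in Bai2 as representative of those it called in E14.5 liver, by a method that smooths over CpGs. The gene was named here whatever its values. Without the Bai2 tiles the share of the list was near that of all tiles. An intron of the related Bai3 had 45.8% and 55.9% against 71.7% and 70.8% (edgeR, adjusted p = 6.82e-04), with an adjusted p of 0.112 without wild type 1. An intron of Nrxn2, a synaptic adhesion gene, had 34.5% and 27.6% against 53.6% and 61.4% (edgeR, adjusted p = 0.00207), with 0.054 without wild type 2.

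Of 30 heart and muscle genes, Tnni3, the cardiac troponin I gene, held 3 higher tiles, and Gata5, a transcription factor of heart and gut, held 1. These were 4 of 818 tiles or 0.489%, against 0.367% of all tiles. The count fell without wild type 1, as over all tiles, and it also fell without mutant 1 but rose without mutant 2. The Tnni3 tile with the largest rise, 3.67 kb before the start, had 38.3% and 41.4% against 62.8% and 69.8% (edgeR, adjusted p = 2.17e-05). At Gata5 the tile had 52.1% and 53.4% against 70.4% and 67.7%, with an adjusted p of 0.155 without wild type 1 and 0.105 without mutant 1 by edgeR.

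The imprinted genes, which are expressed from one parental copy, had the highest share of higher tiles of the 18 lists. Of 1158 tiles 21 were called higher, or 1.81% against 0.367% of all tiles, in 11 of 43 genes, and 0 were lower. Without wild type 1 the count fell, as it did over all tiles. The median difference over their tiles was 1.61 points against 1.14 points over all tiles. The list was rich in tiles of 20% to 60% wild-type methylation, with 188 of 1158, against 41962 of all 601768. Of these 188 tiles 17 were called higher, or 9.04%, against 3.69% of all tiles of that level. This share was also the highest of the 18 lists, followed by 8.11% of the 37 such tiles of pluripotency genes. Dlk1, a paternally expressed growth regulator, held 4 higher tiles, of which chr12:110698001-110699000 had 35.8% and 56% in the wild types and 72.5% and 72% in the mutants (edgeR, adjusted p = 4.11e-05). Wild type 1 was far below wild type 2 there. Ddc had 41% and 49.6% against 75.1% and 65.8% in an intron, and Sgce 33.5% and 40.2% against 60.5% and 62.6% in another. Igf2, a paternally expressed growth factor, held 3 higher tiles with rises of 15.3 to 22.4 points. The other members with a higher tile were Cdkn1c, Grb10, H13, Kcnq1, Meg3, Rian and Slc38a4.

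Of 20 pluripotency genes, 5 held a higher tile each, 5 of 312 tiles or 1.6%, against 0.367% of all tiles. The count fell without wild type 1, as it did over all tiles. Dppa3, which protects methylation in the early embryo, had 54.3% and 60.8% against 85.5% and 82.2% at its start site (edgeR, adjusted p = 1.53e-07). Prdm14, a regulator of germ cell fate, had 21.8% and 28.7% against 46% and 52.1% in an exon (edgeR, adjusted p = 2.53e-04). Esrrb, a nuclear receptor, had 55.5% and 67.7% against 79.1% and 82.3% (edgeR, adjusted p = 2.69e-04), with an adjusted p of 0.0879 without wild type 1.

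Of 30 germline genes, Sycp3, of the meiotic chromosome axis, and Tdrd1, of the piRNA pathway, held a higher tile each, 2 of 368 tiles or 0.543%, against 0.367% of all tiles, and the count was 1 without wild type 1 and 4 without wild type 2. Sycp3 had 64.9% and 68.1% against 87.4% and 84.9% (edgeR, adjusted p = 1.15e-05). Tdrd1 had 47.6% and 61.8% against 74.6% and 70.5% at its start site (edgeR, adjusted p = 0.00535), with an adjusted p of 0.412 without wild type 1. Of 31 matrix genes, Col1a1, a collagen of bone and skin, had 19.4% and 25.7% against 50.2% and 50.7% at 2.04 kb before its start (edgeR, adjusted p = 1.46e-04). Eln, the elastin gene, held a higher tile with an adjusted p of 0.14 without wild type 1, 0.0515 without wild type 2 and 0.293 without mutant 2 by edgeR, and Col9a1 held the lower tile given above. The list had 2 of 1454 tiles or 0.138%, against 0.367% of all tiles. Its higher count was 7 without wild type 2, 5 without mutant 1 and 5 without mutant 2. Of 23 hepatocyte genes, the apolipoprotein gene Apoc1 held a higher tile at its start site, with 46.9% and 60.9% against 77.4% and 77.8% (edgeR, adjusted p = 6.88e-05). That is 0.36% of 278 tiles, near the share of all tiles, and the count was 3 without wild type 2.

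Other lists held few or no calls by edgeR. Of all tiles 0.367% were called higher and 65086, or 10.8%, had an unadjusted p under 0.05. The 16 globin and erythroid genes had 0 called tiles of 308, 46 (14.9%) at an unadjusted p under 0.05 and a median difference of 1.12 points. The 24 genes of Rlf and other modifiers of variegation had 0 of 458, 42 (9.17%) at an unadjusted p under 0.05, with a median wild-type level of 91.6%. Of 16 genes of DNA methylation and demethylation enzymes, Dnmt3a, which sets new methylation, held the 1 higher tile of 399 (0.251%), with 48.5% and 52% against 64.5% and 68.3%, and its adjusted p was 0.241 without wild type 1 and 0.154 without mutant 2. The count of the list was 0 without wild type 1, 3 without wild type 2 and 2 without mutant 1. Of 393 olfactory receptor genes Olfr1342 held a higher tile, 1 of 615 tiles (0.163%), with an adjusted p of 0.0977 without wild type 1, 0.157 without wild type 2, 0.166 without mutant 1 and 0.0641 without mutant 2.

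The clustered protocadherins, cell surface genes of neurons, had 107 of 227 tiles at 20% to 60% wild-type methylation and 0 called higher by edgeR, with 16 tiles higher at an unadjusted p under 0.05 and 2 without wild type 2 called. Of all tiles of that level 3.69% were called higher. The median difference of the protocadherin tiles at 20% to 60% was 0.776 points, against 4.01 points in all tiles of that level. The single called tile, shared by Pcdhb13 and Pcdhb14, was lower in the mutants, with 51.2% and 50.7% against 35.3% and 34.1% (edgeR, adjusted p = 0.0185), and its adjusted p was 0.162 without wild type 1, 0.0514 without wild type 2 and 0.115 without mutant 2.

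Rlf itself (ENSMUSG00000049878) held 11 tiles, of which 0 were called and 2 had an unadjusted p under 0.05, with a lowest adjusted p of 0.414 by edgeR. Its start-site tile had 0.069% and 0.152% in the wild types and 0.0995% and 0.0514% in the mutants. Zfp292, a related zinc finger gene, had 0 calls in 24 tiles and 2 at an unadjusted p under 0.05, with a lowest adjusted p of 0.156. Within 5 Mb of Rlf, 20 of 3987 tiles, 0.502%, were called higher, against 0.403% on the rest of chromosome 4.

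Smad3, a mediator of TGF-beta signals, and Smad6, an inhibitor of BMP signals, both on chromosome 9, held 85 and 60 tiles with 0 calls in each by edgeR, and 13 and 12 at an unadjusted p under 0.05. The interval from Smad3 to Smad6 held 1 called tile of 249 (0.402%, near the 0.367% of all tiles), chr9:63728001-63729000, which had 22.8% and 36.1% in the wild types and 63.4% and 54.4% in the mutants, a rise of 29.5 points (edgeR, adjusted p = 4.52e-06). The Smad6 tile with the largest difference, 15.7 points, had 47.4% and 61.3% against 74.5% and 65.7% and did not pass at an adjusted p of 0.0739 by edgeR.

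The embryo tiles were then read in fetal livers of the same series, which the embryo calls had not used: 2 wild-type and 2 mutant livers at E14.5 (1 male and 1 female of each genotype) and at E18.5 (all female). Of the higher tiles, 2171 were covered in all 12 libraries. At E14.5 they averaged 41.7% and 43.1% in the wild types and 52.2% and 51% in the mutants, a difference of 9.2 points. At E18.5 the values were 46.7% and 46.1% against 58.3% and 55.4%, a difference of 10.47 points. Over all tiles the livers, at 60.9% to 70.8%, were below the embryos. Over all 574594 tiles covered in the 12 libraries the differences were 1.956 and 2.26 points, from 60.9% and 63.3% against 64.4% and 63.7% at E14.5 and 66.6% and 66.9% against 70.8% and 67.2% at E18.5. Single libraries moved these differences over all tiles. The E14.5 difference was 0.731 points without wild type 1 and 3.18 without wild type 2, and the E18.5 difference was 0.51 points without mutant 1 and 4.01 without mutant 2. Over the tiles called higher in embryos the difference stayed between 8.48 and 9.92 points at E14.5 and between 9.01 and 11.9 points at E18.5 when 1 liver at a time was left out. The exact permutation p was 0.33 at each stage, the smallest that 2 against 2 can give.

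In these tiles both mutant livers were above both wild types in 80.2% at E14.5 and 76.3% at E18.5, against 34.2% and 31.2% of all tiles. In the embryos it held in 31.5% of all tiles covered in the 12 libraries, and the reverse in 9.28%. Of the tiles called higher in embryos it was so at both liver stages in 1441 tiles, 66.4% against 12.7%. The difference was above 5 points in 71.3% of the tiles called higher in embryos at E14.5 and in 73.9% at E18.5. Of all tiles 15.6% and 22.5% were above 5 points. In 348 of the tiles called higher in embryos, 16%, the difference was under 5 points at both stages. Their median wild-type level in the embryos was 52%, and that of the other tiles 45.3%. In the livers it was 61.2% at E14.5 and 65% at E18.5, against 40.4% and 45.6% in the other tiles. The embryo differences chose the tiles, so their mean is not set against the liver values. The values over all tiles were not matched by wild-type level. The wild-type livers averaged 42.4% at E14.5 and 46.4% at E18.5 in the tiles called higher in embryos. Over all tiles they averaged 62.1% and 66.7%. The part of this level in the liver shares and differences was not tested.

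**Figure D5:**
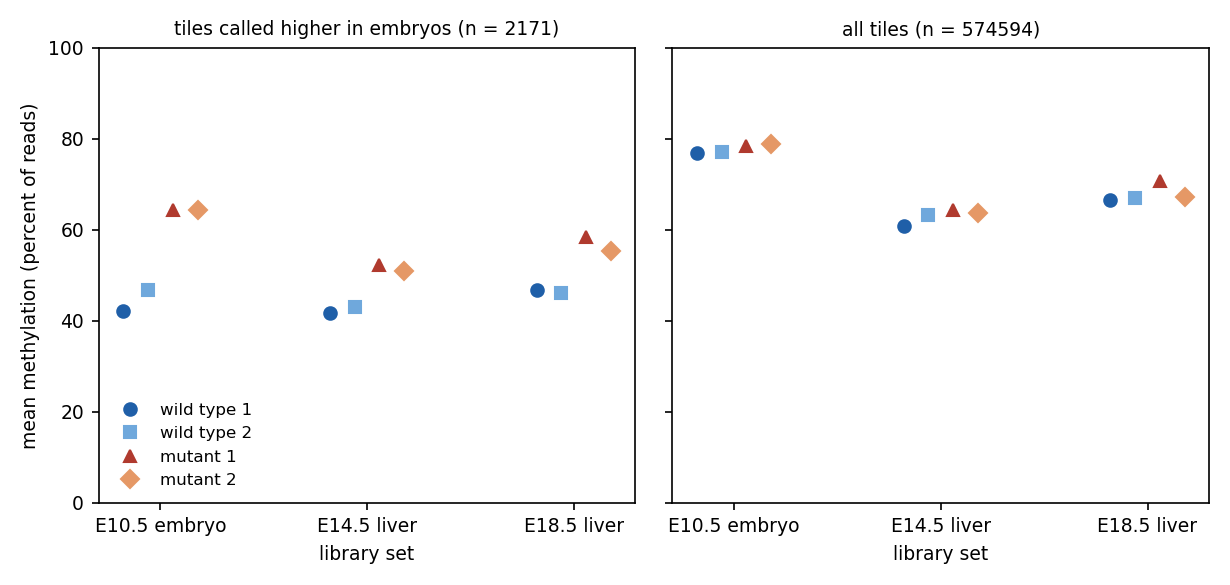
Mean methylation in percent of reads (y axis) of each library (x axis, embryos at E10.5 first, then livers at E14.5 and at E18.5), over the tiles called higher in embryos (left) and all tiles covered in the 12 libraries (right); each symbol is 1 library. The panels are not matched by wild-type level. In the left panel both mutants lie above both wild types in all 3 sets, by 9.2 and 10.47 points in the livers, against 1.956 and 2.26 points in the right panel, where single libraries moved the values (0.731 points at E14.5 without wild type 1 and 0.51 at E18.5 without mutant 1).

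Of the 19 lower tiles 18 were covered in all libraries. In 12 of them both mutants were below both wild types at E14.5 and in 12 at E18.5, 66.7% each against 6.5% and 6.46% of all tiles. At E14.5 they averaged 48.3% and 48.9% in the wild types and 42.1% and 40.4% in the mutants. The shares of all tiles were again not matched by wild-type level.

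The genotype effect in the embryo differed from the mean effect of both liver stages in 50 tiles by an interaction test (edgeR, adjusted p under 0.05). The signed difference in points, mutant minus wild type, was above the mean liver difference in 42 of these tiles (0.00731% of those tested) and below it in 8 (0.00139%). The test was of ratios, whose order can differ from that of points. Against E14.5 liver alone 20 tiles passed and against E18.5 liver alone 18. Tissue and stage change together here and cannot be told apart. By the labels the embryos were male, the E14.5 livers of both sexes and the E18.5 livers female. Over the CpGs covered in all 12 libraries, the tile before Fzd9 differed by 42.3 points in the embryos, 1.97 points at E14.5 and 10.7 points at E18.5 (edgeR, interaction adjusted p = 2.10e-06). Over the CpGs covered in all 12 libraries, the tile shared by Hoxa3, Hoxa6 and Hoxa7 differed by 17.2 points in the embryos, 3.58 points at E14.5 and 3.27 points at E18.5 (edgeR, interaction adjusted p = 1.79e-06). In both tiles the rise was smaller in the livers, but both had been named by their embryo values, which favours a larger rise there.

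Further tiles with this difference were picked after their values were seen. In an exonic tile of Runx1, a transcription factor of blood formation, the embryos had 9.3% and 12.8% in the wild types and 45.6% and 36% in the mutants, while the E14.5 livers had 75.5% and 69.98% in the wild types and 78.8% and 71.6% in the mutants and the E18.5 livers 62.2% and 68.4% in the wild types and 60.8% and 81.3% in the mutants (edgeR, interaction adjusted p = 0.00433). The tile was thus far less methylated in the embryo than in liver. In an intron of Hmga2, a chromatin protein of growing tissue, the embryos had 26.5% and 40.1% in the wild types and 52.3% and 63.5% in the mutants, and the livers differed by -3.23 and 0.428 points (edgeR, interaction adjusted p = 0.0148). The start-site tile of Tmem69 differed by 11.8 points in the embryos and was not called there, and the livers differed by -3.8 and -7.1 points (edgeR, interaction adjusted p = 1.47e-09). At E14.5 it had 2.93% and 5.95% in the wild types and 0.756% and 0.521% in the mutants. At E18.5 it had 15.8% and 1.74% in the wild types and 1.29% and 2.04% in the mutants, so that wild type 1 alone stood apart there. The reverse was seen 222 kb from the start of Enc1, the nearest protein-coding start site, where the embryos had 88.1% and 86.9% in the wild types and 84.3% and 84.1% in the mutants and the livers differed by 27.8 and 27 points (edgeR, interaction adjusted p = 0.00281).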

How the data were processed

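Whole-genome bisulphite sequencing of 2 wild-type and 2 Rlf MommeD28/MommeD28 embryos was analysed from the deposited tables, which give for each CpG the count of methylated and of unmethylated reads. The authors spiked samples with lambda DNA, converted them with bisulphite, mapped paired-end reads with Bismark and Bowtie2 to mm9 carrying FVB substitutions, with lambda and transgene sequences added, and removed PCR duplicates. Reads with residual duplicates or incomplete conversion would raise apparent depth or methylation. The authors also deposited a percent methylation per CpG, which was not used. Percentages here are methylated reads of all reads pooled over the covered CpGs of a tile.

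CpGs with 6 or more reads in all 4 embryos were summed into 1 kb tiles with at least 8 such CpGs on chromosomes 1 to 19. Each tile was tested with edgeR 4.0.16 (R 4.3.3), whose quasi-likelihood model took both kinds of read, gave every library its own intercept and tested genotype. Called tiles differed by more than 15 points and had a Benjamini-Hochberg adjusted p under 0.05. The script was tested on simulated data. The interaction test used the same model on 12 libraries. limma 3.58.1 on log2 ratios (prior count 0.5), other tile and coverage rules, thinned counts, a replicate block and leaving out each embryo were alternatives. Single values were compared by exact permutation tests. Depth per embryo was 15.4 to 17.5 reads per autosomal CpG.

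Gene models came from the GENCODE annotation of NCBIM37 (mm9). Islands had at least 200 bp, 50% G and C and an observed to expected ratio above 0.6. A tile belonged to a gene if its middle lay in the gene or up to 5 kb before its start. Named were the genes at the 12 largest rises and 6 largest falls, 1 tile per gene, the 8 genes with most higher tiles, up to 3 members per list of 18 lists by size of difference, and Rlf, Zfp292, Bai2, Smad3 and Smad6. Other members were named only to complete a count, and 1 further gene is not reported here. Tiles, genes and lists were chosen with earlier results of these data known. Deviations of same-numbered embryos from their genotype means correlated at 0.0455 across tiles, with 2 pairs, and numbers were not taken as pairs. Fetal livers entered only the comparison with the embryos, and chromosome X only an alternative.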

Additional observations from a re-analysis of the deposited data

Results flagged for a closer look

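The genotype effect differed between embryos and livers in 50 tiles by the interaction test (edgeR, adjusted p under 0.05). The rise in the embryo exceeded the mean liver effect by 44.6 points 916 kb from the start of B930007M17Rik, 36 points before Fzd9, 26 points in Hmga2, 25.7 points in Runx1, 17.3 points at Tmem69 and 13.8 points in the tile shared by Hoxa3, Hoxa6 and Hoxa7. At 222 kb from the start of Enc1 the embryo effect minus the mean liver effect was -30.7 points. The tiles at Hmga2, Runx1, Tmem69 and Enc1 were chosen after their values were seen. Those at B930007M17Rik and Fzd9 were named for large rises in the embryos, and the Hoxa tile for its call there. That choice favours a larger embryo value in these tiles. Near B930007M17Rik the wild-type livers lay far apart, with 45.5% and 73.5% at E14.5 and 55.9% and 76.6% at E18.5.

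The reporter transgene was outside the tiles. Its 203 CpGs, covered by a mean of 172 to 229 reads, had 7.39% and 9.72% in the wild types and 20.7% and 22.6% in the mutants, a difference of 13.1 points (exact permutation p = 0.33, the smallest possible). Both mutants were above both wild types in 153 of these CpGs. The same share over other single CpGs was not computed, so this count is a description only. Of all 1 kb tiles, 31.3% had both mutants above. The transgene was also read far deeper than the 15.4 to 17.5 reads per autosomal CpG. The array is multicopy, so the value is a mean over its copies.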

How the results depend on the processing

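The rise in the mutants was called in every alternative of edgeR that was run, but its count moved. It was 1130 with tiles of 2 kb, 3545, 804 and 4322 with a minimum difference of 10 points, 20 points and none, 0 with limma, and 886 to 3516 when 1 embryo was left out. The lower count was 0 with limma, 9 with 10 reads at a CpG, 10 with 12 CpGs in a tile, 10 with 500 bp, 12 with 2 kb, 43, 7 and 85 with 10 points, 20 points and none, and 20 to 49 without 1 embryo. A genotype left with 1 embryo was assumed to vary like the other.

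With the replicate block the counts were 2776 higher and 36 lower tiles. The embryos share only a number, so the block was not taken as a pairing. The interaction gave 20 tiles against E14.5 liver and 18 against E18.5 liver, and with the replicate block 71 against both, 30 against E14.5 and 53 against E18.5. The blocks against a single stage and the liver and list values without each embryo or liver were chosen after seeing the data.

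The difference at 40% to 60% was 3.53 points with the class from wild type 1, and 4.3 to 5.89 points without 1 embryo. At 90% to 100% it reversed to 0.559 and 0.453 points when class and difference came from different wild types, which removes their shared error. Without 1 embryo the share of higher tiles with both mutant livers above both wild types at both stages was 57.8 to 69.3%, and the higher tiles of imprinted genes were 12 to 25. Over the alternatives of the 52 named tiles the call held 486 times and was lost 108 times, 52 of them with limma and 20 without wild type 1, and none reversed. The cause of the other changes was not tested.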
